A study of Mus musculus with 4 samples.

Results

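The 9 genes described here, ND1, ND2, ND4, ND5, CYTB, COX1, COX2, COX3 and ATP6, are carried by the mitochondrial genome and encode subunits of the respiratory chain and of ATP synthase. They were chosen by name, as the rows of the deposited count table whose Entrez gene numbers map to them, and they made up 9 of its 26611 rows. The table held 15 rows of the mitochondrial chromosome in all: 13 protein-coding genes, of which ATP8, ND3, ND4L and ND6 are the other 4, and the 2 ribosomal RNAs, mt-Rnr1 and mt-Rnr2. None of the 22 transfer RNA genes of the reference had a row.

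The series compared spleen natural killer (NK) cells of Tcf7 knock-out (KO) and wild-type (WT) mice, to study the role of Tcf-1, the transcription factor that Tcf7 encodes. The KO group was 2 Tcf7 KO mice and the WT group 2 wild-type mice, all on a C57BL/6 background and each giving 1 RNA-seq library. The allele, the age and the sex are not given in the labels. From both groups, cells without TCRbeta that carried NK1.1, NKp46, CD11b and KLRG1 were sorted by flow cytometry; this is the phenotype of mature NK cells, innate lymphocytes whose granules kill infected or transformed cells.

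Mitochondrial DNA is a small circle, present in many copies per cell, whose genes are read into long RNAs from both strands and then cut into single messengers, largely at the transfer RNAs that lie between them. The proteins it encodes sit in the inner membrane and join many nuclear-encoded subunits to form complexes I, III and IV, which pass electrons to oxygen and pump protons, and complex V, which makes ATP from the proton gradient. NK cells draw on this pathway for their energy supply at rest and on activation.

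The stretches that join COX3 to its neighbours and ND4L to ND4 are shown because the ratio of COX3 to ND4 and ND5 varied most across the libraries. All are on the plus strand of the mitochondrial chromosome of GRCm38 (mm10), with bases from GENCODE transcripts and coordinates from RefSeq. In the first, chrM:8578-8637, the capitals mark the COX3 start codon, whose first base is the last base of ATP6. In the second, chrM:9361-9488, the capitals mark the transfer RNA for glycine between COX3 and ND3. In the third, chrM:10144-10196, the capitals mark 7 bases that are read in the frames of both ND4L and ND4.
ATP6 to COX3 junction: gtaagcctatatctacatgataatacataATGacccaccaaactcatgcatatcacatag
COX3 to ND3 junction: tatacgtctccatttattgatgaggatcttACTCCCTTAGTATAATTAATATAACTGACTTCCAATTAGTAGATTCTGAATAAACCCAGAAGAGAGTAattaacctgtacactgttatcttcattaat
ND4L to ND4 junction: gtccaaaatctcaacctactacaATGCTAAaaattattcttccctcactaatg

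The gene ends are shown because they differ in a way that bears on how each messenger is finished: COX3, ND4 and CYTB stop 1 base after their last full codon, while COX1, COX2 and ND5 carry a full stop codon. As background, an incomplete stop codon is completed when the poly(A) tail is added. The last 30 bases of COX3 (chrM:9361-9390), ND4 (chrM:11515-11544), CYTB (chrM:15259-15288), COX1 (chrM:6843-6872), COX2 (chrM:7667-7696) and ND5 (chrM:13536-13565) follow, with the bases of the stop codon in capitals.
COX3 end: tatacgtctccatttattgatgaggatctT
ND4 end: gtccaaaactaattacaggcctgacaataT
CYTB end: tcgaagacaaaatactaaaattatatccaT
COX1 end: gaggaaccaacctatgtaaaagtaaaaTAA
COX2 end: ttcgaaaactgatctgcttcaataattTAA
ND5 end: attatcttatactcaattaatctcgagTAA

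Some reads cannot be given to 1 gene with certainty, because genes overlap. ATP8 and ATP6 share 43 bases (chrM:7927-7969), shown next with the ATP6 start codon in capitals, and ND5 and ND6 share 14 bases on opposite strands. The strand setting and read assignment of the counting are not given in the sources used here. Levels of ND6, the coding gene of the minus strand, and of ATP8 are therefore uncertain. The same overlaps touch the members ATP6 and ND5, over a smaller part of their length. Of 7 listed nuclear copies of mitochondrial genes, 0 had a row, and how reads that match such copies were counted is not given.
ATP8 and ATP6 shared: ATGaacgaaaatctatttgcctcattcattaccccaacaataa

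The total counts were 28254693 and 37384979 in the KO libraries and 31860505 and 40175537 in the WT libraries. Levels are given as CPM, the count divided by the library's total and scaled to 1000000. Tcf7 itself (Entrez 21414, chr11:52246527-52283383) had 328 and 903 counts (11.6 and 24.2 CPM) in the KO libraries, against 2908 and 3106 counts (91.3 and 77.3 CPM) in the WT libraries. Its log2 difference, KO minus WT, was -2.22 (SE 0.45), with an adjusted p of 1.00 by edgeR's quasi-likelihood test and of 0.00216 by DESeq2. The NK markers used in the sort were present in every library. Ncr1, which encodes NKp46, had 1672 and 1456 CPM in the KO and 1767 and 1522 CPM in the WT libraries. Klrb1c (NK1.1) had 4656 and 3700 CPM in KO and 4863 and 3515 CPM in WT, and Itgam (CD11b) 979 and 1367 against 1172 and 1512 CPM. Klrg1 had 1464 and 882 CPM in KO and 834 and 723 CPM in WT libraries. The groups did not overlap for Klrg1, as for 21.2% of all genes tested, and overlapped for the other sort markers. KO library 1 stands apart from the other 3 in the results below, so values are given library by library and, where a result rests on it, also without it.

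In the KO libraries the 9 genes made up 2.55% and 3.41% of all counts (libraries 1 and 2, 721514 and 1274214 counts). In the WT libraries they made up 3.70% and 3.24% (libraries 1 and 2, 1178491 and 1301782 counts). The share in KO library 1 was the lowest of the 4, and the share in KO library 2 lay between those of the WT libraries, so the groups overlapped. The 95% Wilson interval of the share was 2.55 to 2.56% in KO library 1 and 3.40 to 3.41% in KO library 2, against 3.69 to 3.71% in WT library 1 and 3.23 to 3.25% in WT library 2. These intervals cover counting error only, and depth was therefore not what limited the comparison.

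The mean share was 2.98 ± 0.604% in KO and 3.47 ± 0.324% in WT cells (SD, n = 2 each). The difference of the mean log2 shares was -0.23, KO minus WT, about as large as the spread between libraries of 1 group (pooled SD 0.229 on the log2 scale). Without KO library 1 it was -0.02. Within library number 1 the difference was -0.53, and within library number 2 it was 0.07, so its direction was not the same in both. An exact permutation of the 4 labels cannot give a p below 0.333 with 2 libraries per group, and no p is given for the share. In bulk RNA, fewer cells of a type and less RNA per cell cannot be told apart.

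**Figure D1:**
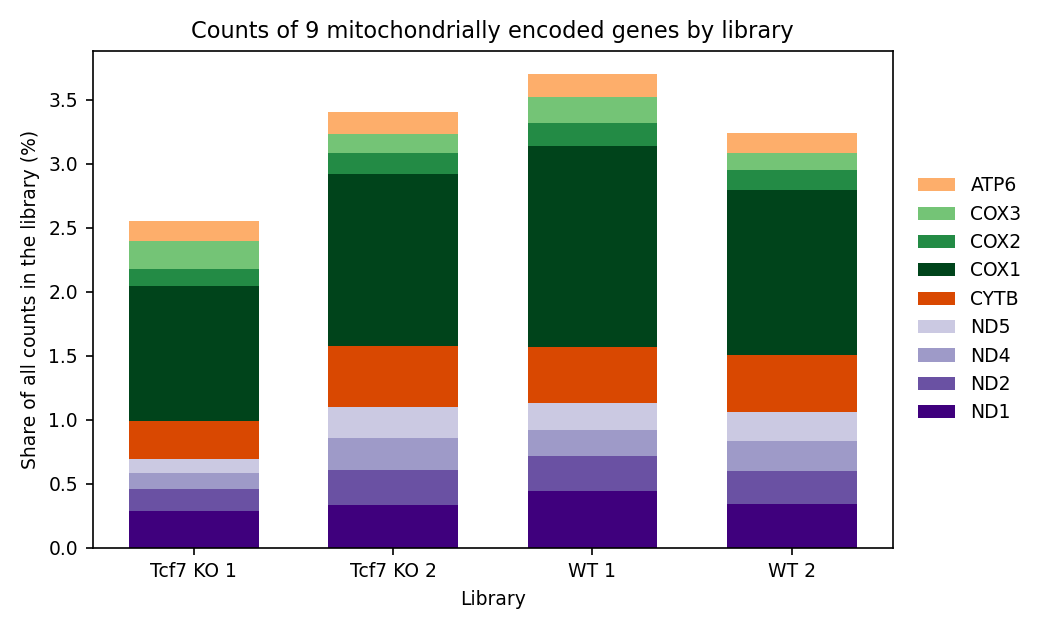
Share of all counts (percent) taken by the 9 mitochondrially encoded respiratory chain genes in each of the 4 libraries, Tcf7 KO left of WT. KO library 1 is lowest at 2.55%, and KO library 2, at 3.41%, lies between the WT libraries at 3.70% and 3.24%.

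Complex I takes electrons from NADH, and ND1, ND2, ND4 and ND5 are core subunits of its membrane arm. ND1, which sits where that arm meets the peripheral arm (Entrez 17716, chrM:2751-3707), had 2873 and 3345 CPM in KO libraries 1 and 2, and 4425 and 3392 CPM in WT libraries 1 and 2. It was the only member whose groups did not overlap, and the gap between KO library 2 and WT library 2 was small; after TMM scaling they had 3467 and 3469 CPM. The means were 3109 ± 333 CPM in KO and 3909 ± 730 CPM in WT cells (SD, n = 2 each), and the log2 difference was -0.32 (SE 0.25). Leaving out KO library 1 gave -0.17, and leaving out WT library 1 gave -0.16.

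ND2, one of the proton-pumping subunits (Entrez 17717, chrM:3914-4951), had 1694 and 2771 CPM in KO libraries 1 and 2, against 2712 and 2638 CPM in WT libraries 1 and 2. KO library 1 was low and KO library 2 was the highest of the 4. ND4 (Entrez 17719, chrM:10167-11544), another proton-pumping subunit, had 1290 and 2474 CPM in KO libraries 1 and 2, and 2075 and 2327 CPM in WT libraries 1 and 2. ND5 (Entrez 17721, chrM:11742-13565), the pumping subunit at the far end of the arm, had 1107 and 2448 CPM in KO libraries 1 and 2, against 2073 and 2229 CPM in WT libraries 1 and 2. For both, KO library 1 was lowest and KO library 2 highest, and the WT libraries fell between them. The log2 differences were -0.25 (SE 0.33) for ND2, -0.21 (SE 0.40) for ND4 and -0.26 (SE 0.46) for ND5.

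CYTB (Entrez 17711, chrM:14145-15288) encodes cytochrome b, the one subunit of complex III that mitochondrial DNA carries. It had 2961 and 4772 CPM in KO libraries 1 and 2, against 4400 and 4519 CPM in WT libraries 1 and 2. KO library 1 was again the lowest and KO library 2 the highest. The means were 3866 ± 1281 CPM in KO and 4459 ± 84.5 CPM in WT cells (SD, n = 2 each), with a log2 difference of -0.20 (SE 0.33).

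Complex IV passes electrons to oxygen, and COX1, COX2 and COX3 form its core. COX1, which holds the site where oxygen is reduced (Entrez 17708, chrM:5328-6872), had 10538 and 13424 CPM in KO libraries 1 and 2, and 15699 and 12864 CPM in WT libraries 1 and 2. By CPM it was the most abundant of all the table's genes in both libraries numbered 2, and ranked 3 in KO library 1 and 2 in WT library 1. COX2, which receives electrons from cytochrome c (Entrez 17709, chrM:7013-7696), had 1331 and 1622 CPM in KO libraries 1 and 2, and 1817 and 1535 CPM in WT libraries 1 and 2. For both genes KO library 1 was lowest and WT library 1 highest, and the log2 differences were -0.25 (SE 0.27) for COX1 and -0.18 (SE 0.24) for COX2. Without KO library 1 that of COX1 was -0.04, and without KO library 2 it was -0.46.

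COX3, a core subunit without metal centres (Entrez 17710, chrM:8607-9390), had 2177 and 1491 CPM in KO libraries 1 and 2, against 1991 and 1310 CPM in WT libraries 1 and 2. It was the only member that was highest in KO library 1, and in both genotypes library 1 was above library 2. The means were 1834 ± 485 CPM in KO and 1651 ± 482 CPM in WT cells (SD, n = 2 each), and the log2 difference was 0.15 (SE 0.30). ATP6 (Entrez 17705, chrM:7927-8607), the complex V subunit through which protons flow, had 1565 and 1740 CPM in KO libraries 1 and 2, and 1799 and 1588 CPM in WT libraries 1 and 2. Its groups lay closest together, with a log2 difference of -0.03 (SE 0.21).

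**Figure D2:**
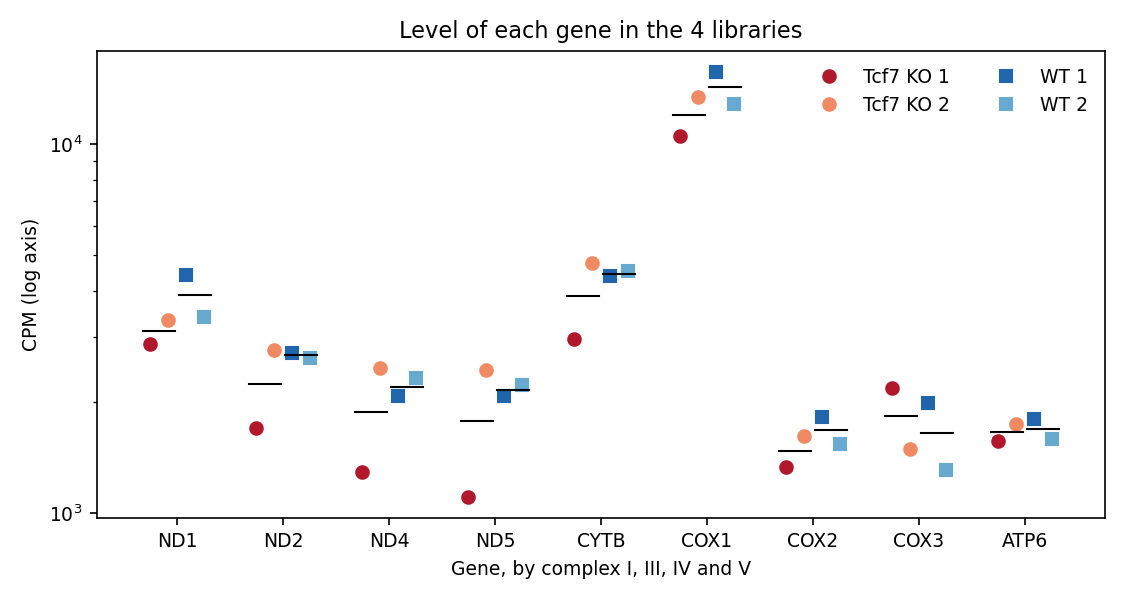
Level (CPM) of each of the 9 genes in each library, Tcf7 KO left of WT. KO library 1 is the lowest of the 4 for ND1, ND2, ND4, ND5, CYTB, COX1, COX2 and ATP6, and the highest for COX3 at 2177 CPM.

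No member passed the test. Of the 9, 0 were called by edgeR's quasi-likelihood test (adjusted p 1.00 for each), by DESeq2 or by limma voom, and 0 had an unadjusted edgeR p under 0.05 (range 0.254 to 0.885). Over all 12723 genes tested, edgeR called 0%, limma voom 0% and DESeq2 0.558% (71 genes), and 2.84% (361 genes) had an unadjusted edgeR p under 0.05. The groups did not overlap for 1 of the 9, against 21.2% of all genes tested. The log2 difference was below 0 for 8 members and above 0 for 1, with a median of -0.21, against -0.01 over all genes. Without KO library 1 the members' median was 0.09, on the other side of 0. The SEs of this fit, which uses genotype only, were 0.21 to 0.46 and as large as most of the differences. A difference of the size estimated could thus not be told from none with these libraries.

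Compared within library numbers, the picture split. In KO library 1 against WT library 1, 8 of 9 members were below 0 on the log2 CPM scale, with a median of -0.58, against -0.02 over 10787 genes with a mean count of at least 50. ND5 stood lowest at -0.90, then ND4 at -0.69, ND2 at -0.68 and ND1 at -0.62, and COX3 was above 0 at 0.13. In KO library 2 against WT library 2, 8 of 9 were above 0, with a median of 0.08 and a range of -0.02 (ND1) to 0.19 (COX3), against -0.02 over all genes. Each combination of genotype and number is 1 library, so the difference between these comparisons could not be tested. No label says that a number marks a shared day, litter or batch.

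The libraries also differed within each genotype. KO library 1 minus KO library 2 was below 0 for 8 of 9 members (median -0.35), from -1.14 for ND5 to 0.55 for COX3. WT library 1 minus WT library 2 was above 0 for 6 and below 0 for 3 (median 0.18), from -0.17 for ND4 to 0.60 for COX3. The order of the members was much alike in both: over the 9 genes Pearson's r was 0.94 and Spearman's rho 0.85. These comparisons share no library, but genes of 1 genome and 1 library preparation are not independent, so this is a description.

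**Figure D3:**
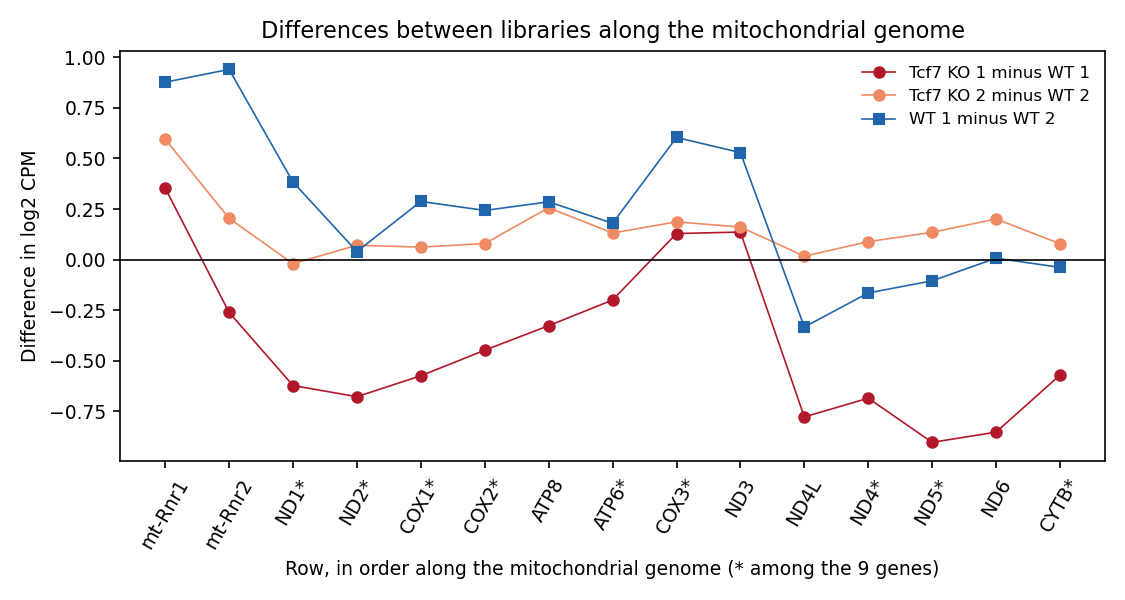
Log2 difference in CPM for each row of the mitochondrial chromosome in genome order, within library number 1 and within library number 2 (Tcf7 KO minus WT). WT library 1 minus WT library 2 is drawn beside them. Number 1 runs from -0.90 (ND5) to 0.13 (COX3) among the 9 genes, while number 2 stays between -0.02 and 0.19.

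The remaining coding genes did not all run alike. ND3, the complex I subunit that follows COX3, had 209 and 147 CPM in KO libraries 1 and 2, against 190 and 132 CPM in WT libraries 1 and 2, and the ratio of ND3 to COX3 was 0.0958 and 0.0986 in KO and 0.0953 and 0.1004 in WT libraries. ND4L, the complex I subunit whose frame runs into ND4, had 51.3 and 112 CPM in KO and 88.0 and 111 CPM in WT libraries. ND6, a further complex I subunit, had 300 and 620 CPM in KO and 542 and 540 CPM in WT libraries. ND4L and ND6 were thus lowest in KO library 1, as every member but COX3 was, while ND3 was highest there, as COX3 was. ND3 and ND4L lie next to each other among the rows, yet KO library 1 minus WT library 1 was 0.14 for ND3 and -0.78 for ND4L. ATP8, the complex V subunit that overlaps ATP6, had 272 and 334 CPM in KO and 341 and 280 CPM in WT libraries.

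Both RNAs of the mitochondrial ribosome were higher in library 1 than in library 2 of each genotype. mt-Rnr1, the small-subunit RNA, had 721 and 464 CPM in KO and 564 and 307 CPM in WT libraries, with a log2 difference of 0.44 (SE 0.37), and it was not called. mt-Rnr2, the large-subunit RNA, had 1622 and 1166 CPM in KO and 1944 and 1013 CPM in WT libraries, with a log2 difference of -0.09. The ratio of mt-Rnr2 to mt-Rnr1 was 2.25 and 2.51 in KO and 3.44 and 3.30 in WT libraries, lower in KO within both numbers. This ratio was not tested, and an exact permutation of the labels cannot give a p below 0.333 with 2 libraries per group. Together they took 0.234% and 0.163% of KO and 0.251% and 0.132% of WT counts. With all 15 rows the mitochondrial share was 2.87% and 3.69% in KO and 4.07% and 3.48% in WT libraries.

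Per kilobase of gene length, the members differed several-fold in level. Over the 4 libraries COX1 averaged 8499 ± 1372 CPM per kb (SD, n = 4), ahead of ND1 at 3666 ± 684 and CYTB at 3639 ± 714 CPM per kb. Below them came ATP6 (2457 ± 167), ND2 (2364 ± 491), COX2 (2304 ± 294) and COX3 (2222 ± 521 CPM per kb). These SDs hold the spread over libraries and genotypes, and whether members differ from each other was not tested. ND4 followed at 1481 ± 383 and ND5 at 1077 ± 324 CPM per kb. The order was not the same in every library: in KO library 1 COX3, at 2776 CPM per kb, was above CYTB (2588) and ATP6 (2299 CPM per kb), and in the other libraries it was below both. COX1 was therefore the highest member on both scales, and made up 41.3% and 39.4% of the members' counts in KO and 42.4% and 39.7% in WT libraries.

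The make-up of the 9 genes differed by library. COX3 held 8.52% and 4.37% of the members' counts in KO libraries 1 and 2, and 5.38% and 4.04% in WT libraries 1 and 2. ND5 held 4.34% and 7.18% in KO libraries 1 and 2, and 5.60% and 6.88% in WT libraries 1 and 2. In both genotypes COX3 thus had the larger share in library 1 and ND5 the smaller. By complex, the 4 complex I members summed to 6964 and 11037 CPM in KO and 11284 and 10586 CPM in WT libraries, and the 3 complex IV members to 14046 and 16536 CPM in KO and 19507 and 15709 CPM in WT libraries.

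Ratios between members do not depend on the library total. The ratio of COX3 to ND5 was 1.97 and 0.609 in KO libraries 1 and 2, against 0.961 and 0.588 in WT libraries 1 and 2. Its highest value was 3.35 times its lowest, the widest range of the 36 pairs, whose median was 1.47 times. At the other end, ND2 to CYTB varied by 1.08 times, and the ratio of ND4 to ND5 was 1.16 and 1.011 in KO and 1.00 and 1.04 in WT libraries. COX3 and ND4, both with the incomplete stop codon shown above, were not alike: their ratio was 1.69 and 0.603 in KO and 0.960 and 0.563 in WT libraries. In 26 of 36 pairs the ratio in WT library 1 lay between those of KO library 1 and WT library 2. The genotypes did not overlap in 6 of 36 pairs, which share their genes and libraries; over single genes the groups did not overlap in 21.2% of those tested. For the pairs within number 2, the KO ratio divided by the WT ratio ran from 0.866 to 1.08, and within number 1 from 0.571 to 2.05.

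**Figure D4:**
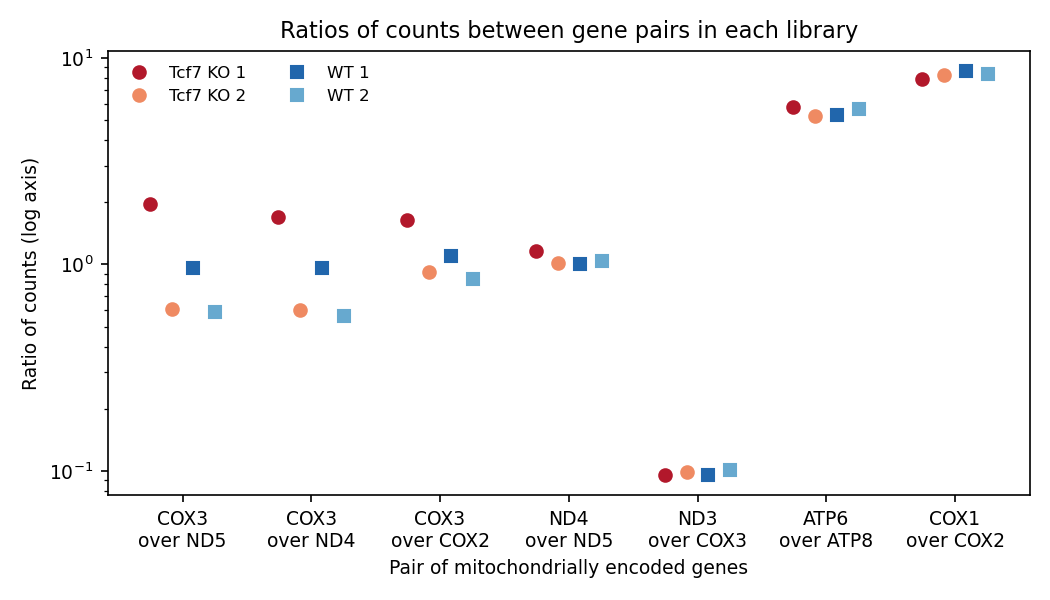
Ratios between mitochondrial genes in each library, on a log axis, Tcf7 KO left of WT. COX3 to ND5 spans 1.97 (KO library 1) to 0.588 (WT library 2), while ND4 to ND5 stays between 1.16 and 1.00.

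Gene length was set beside these differences. Over the 9 members the difference of KO library 1 from WT library 1 had Pearson's r of -0.72 and Spearman's rho of -0.77 with length, and r of 0.26 with GC content. Over all 13 coding genes r with length was -0.43. These points share the same libraries, and no p is given. Among nuclear genes with a mean of at least 5 CPM, the median of KO library 1 minus WT library 1 was 0.20 for 841 genes under 1 kb, 0.09 for 2096 genes of 1 to 2 kb, -0.03 for 3741 genes of 2 to 4 kb and -0.18 for 2684 longer genes. The members of 1 to 2 kb, ND2, COX1, ND4, ND5 and CYTB, lay between -0.57 and -0.90 in that comparison, below the median of nuclear genes of their length. Within number 2 the medians of the same bins lay between -0.02 and -0.01. The trend with length was wider between the numbers of 1 genotype. From genes under 1 kb to genes of 4 kb and over, the median ran from 0.65 to -0.52 in KO library 1 minus KO library 2, and from 0.42 to -0.37 in WT library 1 minus WT library 2. Over the 9 members, r with length was -0.71 in that KO comparison and -0.55 in that WT comparison. Over all 13 coding genes it was -0.33 and -0.23. Length did not stand apart in the WT comparison, where r over the 9 members was 0.51 with GC content and -0.51 with start position. In the KO comparison those were 0.41 and -0.35. The part of length in the members' differences was not tested.

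**Figure D5:**
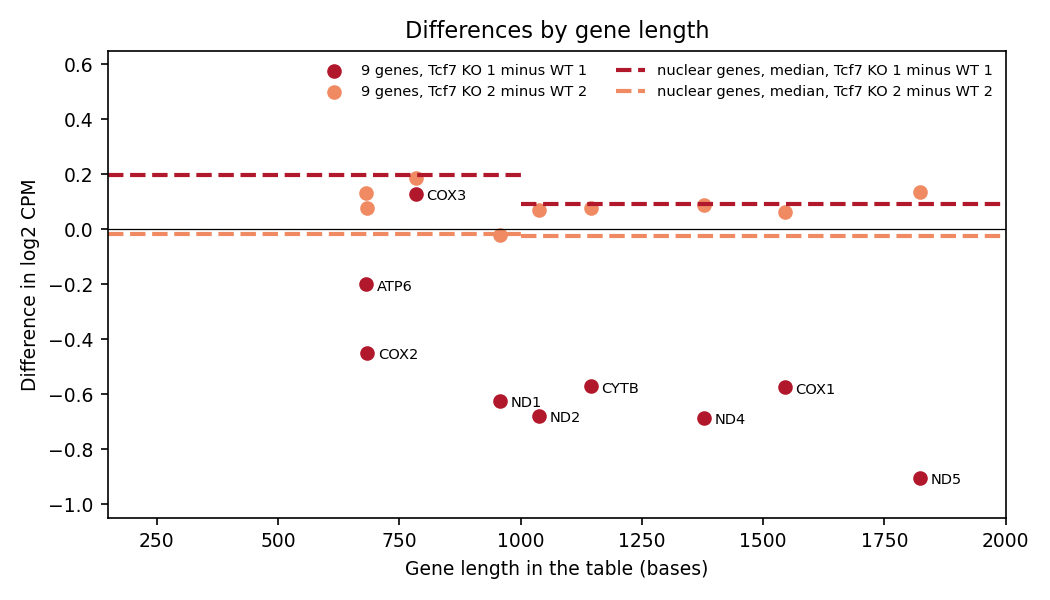
Log2 difference in CPM, Tcf7 KO minus WT, against gene length, within library number 1 and within library number 2. Points are the 9 mitochondrial genes, and dashed lines are medians of nuclear genes under 1 kb and of 1 to 2 kb. Within number 1 the nuclear medians are 0.20 under 1 kb and 0.09 at 1 to 2 kb, and ND5 lies at -0.90. Within number 2 both medians are at -0.02.

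Other RNA classes also moved with the libraries. Cytosolic ribosomal protein genes took 2.32% and 1.35% of counts in KO libraries 1 and 2, against 1.81% and 1.37% in WT libraries 1 and 2. The nuclear-retained noncoding RNA Malat1 had 18.7 and 81.6 CPM in KO libraries 1 and 2, and 48.3 and 44.3 CPM in WT libraries 1 and 2. The ribosomal protein genes were highest, and Malat1 lowest, in KO library 1, where every member but COX3 was lowest. The 12 handling-response genes summed to 862 and 923 CPM in KO and 841 and 920 CPM in WT libraries, but abundant genes carry that sum. Gene by gene, 3 of the 12 were above 0 in KO library 1 against WT library 1 (median log2 difference -0.43), and 7 of 12 within number 2 (median 0.05). A single abundant row without a symbol, Entrez 100861531, took 1.78% and 0.309% of KO and 0.686% and 0.324% of WT counts, the most in KO library 1.

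Markers of other cell types also differed between the libraries. The 16 myeloid markers summed to 788 and 124 CPM in KO libraries 1 and 2, against 172 and 30.7 CPM in WT libraries 1 and 2, with Ltf, Ngp and Elane at 0 in at least 1 library. The 13 erythroid and platelet markers found in the table summed to 291 and 157 CPM in KO and 53.1 and 37.4 CPM in WT libraries. Both sums were higher in KO than in WT within each number, and highest in KO library 1. Of the 15 myeloid markers tested, 15 were above 0 within number 1 and 10 within number 2, and of the 11 erythroid and platelet markers tested, 10 and 10. DESeq2 called 2 of these 15 and 4 of these 11, against 0.558% of all genes tested, and edgeR called 0. The groups did not overlap for 8 of the 15 and 7 of the 11, against 21.2% of all genes tested. Of the T cell markers DESeq2 called 1 of 10 tested, and of the B cell and NK cell markers 0. T cell markers (11 genes) summed to 321 and 158 CPM in KO and 235 and 172 CPM in WT libraries, and B cell markers (9 genes) to 464 and 215 CPM in KO and 250 and 168 CPM in WT libraries. For both, the sums and the single genes did not always point the same way. The median T cell marker was at -0.10 within number 1 (4 of 10 tested above 0) and 0.21 within number 2 (6 of 10), and the median B cell marker at 0.27 within number 1 (6 of 7) and -0.31 within number 2 (3 of 7). The 10 NK cell markers summed to 40174 and 30137 CPM in KO and 37713 and 30443 CPM in WT libraries. Gzma, a granzyme, made up much of that sum, with 21261 and 11465 CPM in KO and 17894 and 12050 CPM in WT libraries, and 4 of the 10 NK markers were above 0 within number 1 (median -0.07). The part of these cells and RNA classes in the members' levels was not tested.

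The nuclear-encoded subunits of complex I, which assemble with the ND proteins, summed to 3008 and 2010 CPM in KO libraries 1 and 2, and to 2715 and 2014 CPM in WT libraries 1 and 2. Their sum was highest in KO library 1, where ND1, ND2, ND4, ND4L, ND5 and ND6 were lowest and ND3 was highest. Of 75 listed subunits of complexes I to V, 74 were tested, edgeR and DESeq2 called 0, and 0 had an unadjusted edgeR p under 0.05. Their log2 differences were above 0 for 61 and below 0 for 13, with a median of 0.09, and the median was 0.16 within number 1 and 0.01 within number 2. Within number 1 their median was thus above 0 while that of the 9 mitochondrial genes was below it. There 56 of the 74 were above 0, against 47.7% of 10787 genes with a mean count of at least 50. Medians above 0 were also found there for all nuclear genes under 1 kb (0.20) and of 1 to 2 kb (0.09), and for cytosolic ribosomal protein genes (0.30). The part of gene length in the subunits' differences was not tested. Cox4i1, a nuclear subunit of complex IV, had 719 and 392 CPM in KO libraries 1 and 2, and 553 and 403 CPM in WT libraries 1 and 2 (log2 difference 0.20, SE 0.34). Sdha, of complex II, which has no mitochondrially encoded subunit, had 261 and 287 CPM in KO and 292 and 296 CPM in WT libraries.

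Genes that act on mitochondrial DNA and RNA were not called either. Of 16 genes of mitochondrial transcription and DNA maintenance, 9 were above 0 and 7 below, with a median of 0.01. Tfam, which packs mitochondrial DNA and starts its transcription, had 112 and 75.2 CPM in KO libraries 1 and 2, and 106 and 77.7 CPM in WT libraries 1 and 2 (log2 difference 0.02, SE 0.28). Polrmt, the mitochondrial RNA polymerase, had 16.2 and 35.4 CPM in KO and 17.2 and 33.7 CPM in WT libraries (0.03, SE 0.57). For both, the libraries differed more between numbers than between genotypes. Lrpprc, which stabilises mitochondrial messengers, had 51.3 and 67.8 CPM in KO and 50.6 and 63.6 CPM in WT libraries (0.06, SE 0.29). Ppargc1a, a coactivator of mitochondrial biogenesis, was low, with 0.991 and 1.98 CPM in KO and 1.32 and 1.42 CPM in WT libraries.

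Among the 19 genes of RNA processing and stability 10 were above 0 (median 0.01), among the 11 translation factors 10 (median 0.07) and among the 78 mitochondrial ribosomal proteins 64 (median 0.13). Of 36 tested assembly factors 25 were above 0 (median 0.06), of 9 regulators of biogenesis 5 (median 0.01), and of 9 tested genes of mitochondrial dynamics and mitophagy 2 (median -0.07). In these lists edgeR and DESeq2 called 0 genes, and 1 assembly factor had an unadjusted edgeR p under 0.05, with a negative difference. Of the 78 mitochondrial ribosomal proteins, 67 were above 0 within number 1 (median 0.21) and 41 within number 2 (median 0.01). The assembly factors had 26 (0.14) and 15 (-0.06), and the translation factors 9 (0.14) and 8 (0.11). Of 77 cytosolic ribosomal protein genes tested, 72 and 43 were above 0. Over 10787 genes with a mean count of at least 50, 47.7% and 45.3% were.

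Of the nuclear genes with a mean of at least 50 CPM, the 5 whose pattern over the 4 libraries was most like that of the summed members were Tug1, Pias3, Cpsf7, Dazap1 and Cpsf3. Likeness was the root mean square distance between log2 CPM values centred over the 4 libraries, 0.04 for Tug1 and 0.05 for Cpsf3. Tug1, a noncoding RNA, had 94.6 and 120 CPM in KO libraries 1 and 2, and 135 and 124 CPM in WT libraries 1 and 2. They were picked as the nearest of 4111 genes over 4 libraries, so their small distances follow from the choice, and no p is given. Among the members the distance ran from 0.04 for COX1, the largest part of the sum itself, to 0.42 for COX3.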

How the data were processed

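RNA from sorted spleen NK cells of individual mice was prepared with a TruSeq RNA kit from 200 ng of total RNA and sequenced in pairs on a NextSeq instrument, per the labels' protocols. The authors deposited whole-number counts per Entrez gene, beside a gene length. The submitters' processing notes name featureCounts and mm10, while aligner, versions and strandedness are not given in the sources used here. All 4 single-sample files equal the series table, and 0 of its columns lack a sample. Of 26611 rows, 25275 (95.0%) had a RefSeq symbol; those without held 0.760 to 2.46% of a library's counts and stayed in. The 15 mitochondrial rows have the lengths of RefSeq.

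Genes were kept with filterByExpr (minimum count 10; 12723 genes) and tested with edgeR 4.0.16 in R 4.3.3 (quasi-likelihood F-test, TMM, robust, genotype only, two-sided) with Benjamini-Hochberg adjusted p under 0.05 over all genes. Log2 differences are KO minus WT, and each SE was derived from the difference and its F value. DESeq2 1.42.0, limma 3.58.1 (voom), other scalings and filters, a block for the library number and leaving out each library were alternatives. The methods were tested on simulated data. For differences between single libraries, 0.1 CPM was added to all-gene values. The named genes are all mitochondrial rows, 6 genes fixed by name, list members by test or level, the like genes and the sort markers. The sort markers Ncr1, Klrb1c, Itgam and Klrg1 were added after their values were seen. Of the list genes, Cox4i1, Sdha and Gzma are printed as examples. The members and gene lists were chosen with earlier results of these data known.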

Additional observations from a re-analysis of the deposited data

How the results depend on the processing

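Of the 12 alternatives, 8 kept all libraries, and in these 0 of the 9 members were called. The members' median log2 difference, -0.21, lay between -0.26 and -0.195 in these 8. It was -0.46 without KO library 2 and 0.09 without KO library 1, so its sign depended on KO library 1. For the share's log2 difference, -0.23, there were 8 alternatives. It was -0.24 to -0.21 where all libraries were kept, -0.44 without KO library 2 and -0.02 without KO library 1. The number of all genes called, 0 by edgeR, was 35 without the filter, 71 by DESeq2's Wald test and 221 with the library number as a replicate block, and 0 to 53 with 1 library left out (53 without KO library 2). In the replicate block the members' median was -0.26. Their SEs were smaller there, from 0.15 (COX3) to 0.25 (ND5), and below most of the differences. Still 0 members were called, the smallest edgeR adjusted p being 0.631 (ND1). Differences of KO library 1 from 2 and WT library 1 from 2 correlated at r = 0.73 over 12723 genes, but no label ties the numbers to a day or litter. Of 108 member values, 9 changed sign, all with 1 library left out, the cause not being tested: ND2 ran from -0.68 to 0.10, ND4 from -0.80 to 0.22, ND5 from -0.98 to 0.24, CYTB from -0.61 to 0.15, COX2 from -0.35 to 0.0062, ATP6 from -0.13 to 0.0917 and COX3 from -0.0893 to 0.44. Without KO library 2, ND4 and ND5 had unadjusted edgeR p under 0.05 (adjusted 0.734 and 0.568), as did 861 of 13220 genes; the lone KO library is then assumed to vary like the WT group. Counts of at least 31283 per member and library make the spread between libraries, not depth, the limit.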
